A study of Mus musculus with 2 samples.

Results

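The cells described here were thymic cells chosen for transcripts of type-1 effector genes. A cell was included when its unique molecular identifiers (UMIs, each standing for 1 captured RNA molecule) of Ccl5, Il2rb, Nkg7 and Klrb1c summed to at least 6, when it held at most 1 UMI of Cd24a, and when its UMIs of Il17a, Tmem176a, Tmem176b and Ccr6 summed to at most 2. The sum of the first 4 genes is called the score below, and the cells that met the rule are called score-high cells. Of 4351 thymic cells kept after quality filters (800 to 4000 genes detected and at most 6% mitochondrial UMIs), 293 were score-high, 6.73% (6.01% to 7.52%). The 4351 cells were part of 12426 kept cells of the whole series. Because the cells were chosen by measured UMIs of these 9 genes, every level of these genes, and every difference from the other cells of the same library, is a description and was not tested.

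γδ T cells were sorted from the thymus and the liver of untreated wild type C57BL/6J mice aged 8 weeks, and 1 droplet-based single-cell library was made from each tissue. Before sorting on CD3e and the γδ T cell receptor, CD4 and CD8 bearing cells were removed from the thymic suspension with magnetic beads. Cells of several mice were pooled and the labels do not tie cells to mice, so there was no replicate: ranges in parentheses are exact 95% intervals that cover counting error only, and tissue and library cannot be told apart. Genes of the T cell receptor loci were not analysed here, so the receptor chains of the score-high cells were not examined.

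γδ T cells leave the thymus partly committed to a cytokine. Type-1 cells make interferon-γ, use the transcription factor T-bet (Tbx21) and the shared interleukin-2 and interleukin-15 receptor chain CD122 (Il2rb), and often carry receptors first described on natural killer (NK) cells, such as NK1.1 (Klrb1c). CD24 marks immature thymocytes and is lost on maturation. A further subset, often called γδ NKT cells, uses the transcription factor PLZF (Zbtb16) and can make interleukin-4 together with interferon-γ.

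The label of mature type-1 effector cells held only in part. Ccl5, a chemokine, supplied 63.6% of the 5744 score UMIs and Nkg7, a protein of cytotoxic granules, 29.98%, while Il2rb supplied 4.86% and Klrb1c 1.51%. Ccl5 ranged from 0 to 149 UMIs per cell with a median of 4, and 116 score-high cells held none. Nkg7 ranged from 0 to 25 with a median of 5, and in 146 cells it reached the limit of 6 on its own. Among the markers the rule did not use, a Tbx21 UMI was found in 13 of 293 cells, 4.44% (2.38% to 7.47%), against 4 of 4058 other kept thymic cells. For Nt5e, which encodes the ecto-enzyme CD73, the counts were 25 cells, 8.53% (5.60% to 12.3%), and 102 cells, 2.51% (2.05% to 3.04%). The share with a Tbx21 UMI was thus small but above that of the other cells, and most score-high cells showed neither marker at this depth.

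The score is a scale and not a boundary between cell types. Its median among score-high cells was 10 and its range 6 to 166. Exactly at the limit of 6 lay 60 cells, and 143 of 293 scored 6 to 9, while 80 cells that met the other limits scored 5. Of 383 kept cells that reached the score, 87 were left out for more than 1 Cd24a UMI and 3 for more than 2 UMIs of the last 4 genes of the rule. The score was reached through different genes at its 2 ends. The cells were therefore also described in 3 strata, set after the values were seen, of 160 Ccl5-positive cells with at least 3 Ccl5 UMIs, 41 Nkg7-only cells with no UMI of Ccl5, Il2rb or Klrb1c, and 92 remaining cells.

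**Figure D1:**
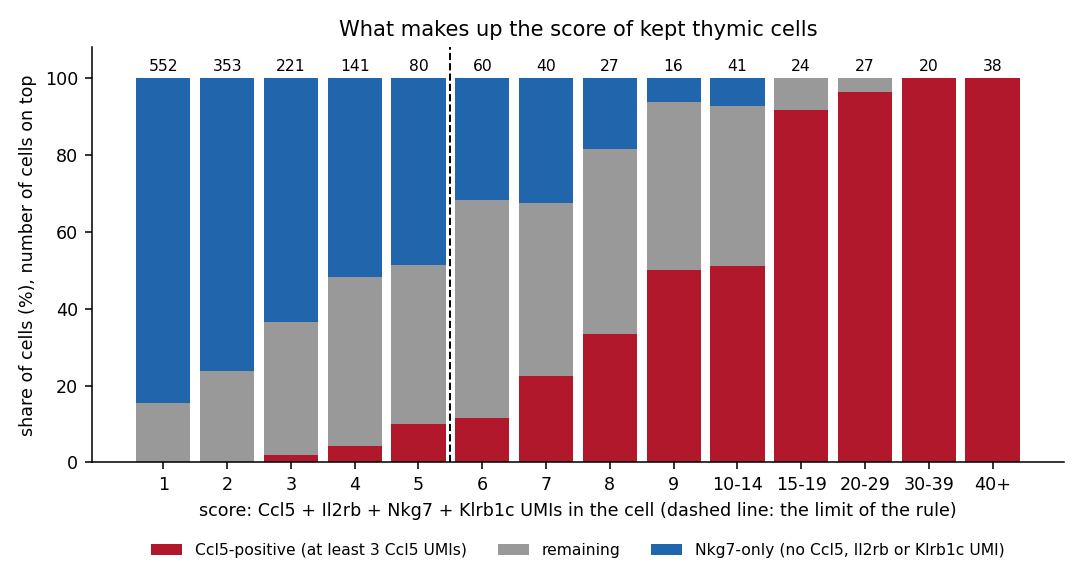
The horizontal axis gives the score of kept thymic cells within the other limits of the rule, and the stacked bars give the share of cells in % that were Ccl5-positive, remaining or Nkg7-only, with the number of cells on top; cells without a score UMI are left out. Of 60 cells at a score of 6, 19 were Nkg7-only and 7 Ccl5-positive, and at 40 and over all 38 cells were Ccl5-positive.

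Score-high cells held 1074323 UMIs in all, with a median of 3254 per cell, close to the 3271 of the other kept thymic cells. Barcodes were shared by the thymic and hepatic libraries in 60 cases, 5 of them score-high cells. A UMI of a CD3 chain (Cd3d, Cd3e or Cd3g) was present in 292 of 293 cells. A Cd4 UMI was found in 1 cell, a Cd8a UMI in 9 and a Cd8b1 UMI in 6. Of the NK cell markers, Ncr1 was at 11.2 (5.77 to 19.5) UMIs per 1000000 UMIs (CPM), Klra8 at 0.931 (0.0236 to 5.19) and Itga2 at 0. Eomes, also an NK cell marker and part of the list summed next, was higher in score-high than in other cells. Its levels are given with the type-1 regulators below. The summed level of the 8 genes of the NK and innate lymphoid list was 73.5 CPM in score-high and 15.9 in other cells, and 4 of the 8 were at 0 in score-high cells. Of the 9 myeloid genes 6 were at 0, with a sum of 5.58 CPM, and of the 9 B cell genes 3 were at 0, with a sum of 38.2. The defining markers Lyz2, C1qa, Csf1r and Ms4a1 were all at 0. After thinning, the summed UMIs per cell ranged from 0 to 3 for the NK list, 0 to 1 for the myeloid, 0 to 3 for the B cell and 0 to 2 for the erythroid list in score-high cells, against 0 to 3, 0 to 80, 0 to 135 and 0 to 518 in other cells. A UMI of the NK list was found in 10.7% of thinned score-high cells and in 2.49% of thinned other cells. The 5 erythroid genes summed to 34.4 CPM against 96.7 in other cells. The part of such cells in the results was not tested beyond these levels.

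Set against the other kept thymic cells, score-high cells showed Klrd1, Klrc1, granzyme B, lymphotactin (Xcl1), Ly6c2 and Cd7 at higher levels, and Hes1, Sox4, Ccr9 and granzyme A at lower levels. Levels are CPM of the UMIs summed over all cells of a group. A gene was counted as higher or lower when its ratio was at least 2 in either direction, among genes with a mean of the 2 levels of at least 50 CPM and at least 50 UMIs. Of 2489 genes that passed these filters, 72 were higher (2.89% of them) and 76 lower (3.05%). The rule used the same cells, so these counts give the background for the groups of genes below, with no test. A gene that passed the filter on level only through the group where it is high had to differ, so the counts by list describe these cells and support nothing. This holds in every comparison below for a gene counted as higher or lower with a level under 50 CPM in either group.

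Of 22 listed NK receptors and adaptors, 6 passed the filter on level and were counted as higher. For 5 of these (Klrd1, Klrc1, Klrk1, Fcer1g and Cd160) the level in other cells was under 50 CPM, so they passed only through the score-high cells. Klrd1, which encodes CD94 and pairs with NKG2 chains, stood at 275 (244 to 308) CPM in score-high cells and at 10.4 (8.92 to 12.2) in other cells, a ratio of 26.3 (21.7 to 32.0). Klrc1, its inhibitory partner NKG2A, stood at 139.6 (118 to 164) and 2.75 (2.00 to 3.69), a ratio of 50.7 (36.0 to 72.7). Klrk1, the activating receptor NKG2D, stood at 152 (129 to 177) and 13.8 (12.1 to 15.8). All of these levels lay far outside the counting error of the other cells.

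The adaptors that couple such receptors to kinases were higher as well. Fcer1g stood at 456 (417 to 498) CPM against 21.6 (19.4 to 24.0), a ratio of 21.1 (18.3 to 24.3), and Hcst, the adaptor DAP10 of NKG2D, at 493 (452 to 537) against 203 (196 to 210.4). Tyrobp, the adaptor DAP12, was below the filter on level, at 92.2 (74.9 to 112) against 5.69 (4.58 to 6.99). Cd160, a receptor for HVEM and for class I molecules, stood at 159 (136 to 185) against 27.5 (25.01 to 30.2). Members of the Ly49 family, all below the filter, were close to 0 in other cells, with Klra9 at 91.2 (74.1 to 111) against 1.56 (1.01 to 2.31), Klra1 at 82.8 (66.5 to 102) against 7.57 (6.28 to 9.04) and Klra7 at 41.9 (30.6 to 56.0) against 1.501 (0.962 to 2.23). Ly49 genes and the Klrc genes are near copies of one another, so reads could be split between them in the counting. Klrg1, a receptor of late effector cells, was at 0 in score-high cells.

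These receptors were carried by part of the cells and by many fewer cells elsewhere. With every cell thinned to 1500 UMIs, a Klrd1 UMI was found in 29.9% (24.7% to 35.5%) of score-high cells (40.96% without thinning), against 0.240% (0.0496% to 0.7003%) of the 1250 kept thymic cells with at least 3 Cd24a UMIs (0.960% without thinning), which are taken as the background class of immature cells. For Fcer1g the thinned shares were 28.2% (23.1% to 33.7%) and 0.721% (0.330% to 1.36%), with 33.8% and 1.68% unthinned, and for Klrc1 14.8% (10.9% to 19.4%) and 0.240% (0.0496% to 0.7003%), with 22.2% and 0.240% unthinned. The median depth was 3254 UMIs in score-high and 3693.5 in immature cells, and thinning left out 2 and 1 cells. The shares in score-high cells were therefore above background although the immature cells were deeper. All 15 Klr genes of the list, with Klrb1c, lie in the NK gene complex and around it, on chromosome 6 between 122270596 and 130386874 of the GRCm38 build (GENCODE annotation, from the start of the first gene to the end of the last). Klrb1c itself is part of the score, and whether position near it bears on the levels of the other Klr genes was not tested.

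Transcription factors of the type-1 program were low in number of UMIs. Of 12 listed regulators 5 passed the filter, 2 were higher and none lower. The level of Bhlhe40 in other cells was under 50 CPM, so it passed only through the score-high cells. Bhlhe40, which sustains interferon-γ production in T cells, stood at 98.7 (80.8 to 119) CPM against 16.4 (14.5 to 18.5), a ratio of 6.02 (4.76 to 7.57), and Id2, an inhibitor of E proteins needed by innate lymphocytes, at 276 (246 to 309.8) against 124 (118 to 129). Tbx21 stood at 16.8 (9.93 to 26.5) against 0.250 (0.0682 to 0.640) from 18 and 4 UMIs. Eomes, the T-box factor related to T-bet, stood at 39.1 (28.2 to 52.8) against 3.56 (2.70 to 4.62), with UMIs in 30 score-high cells. Runx3, which works with T-bet, was at 164 (141 to 189.9) against 140.2 (134 to 146), and Stat4, which carries the interleukin-12 signal, at 67.0 (52.4 to 84.4) against 60.8 (57.0 to 64.7), neither 2-fold apart. Prdm1, which encodes the repressor Blimp-1, was at 0 in score-high cells and at 0.688 (0.343 to 1.23) in other cells.

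The granzymes went in opposite directions. Gzmb stood at 214 (187 to 244) CPM in score-high and 8.44 (7.08 to 9.99) in other cells, a ratio of 25.4 (20.4 to 31.6), with UMIs in 48 of 293 cells. Gzma stood at 438 (399.7 to 479.9) against 2966 (2939 to 2992), a ratio of 0.148 (0.135 to 0.162), and 1 score-high cell held 74 of its 471 UMIs. In the immature class Gzma was at 3474 (3427 to 3522) and Gzmb at 1.68 (0.805 to 3.09), so the 2 granzymes differed between immature and score-high cells in opposite directions. Of the 12 cytotoxic genes 7 passed the filter, 3 were higher and 1, Gzma, lower. The other 2 higher genes were Ctsw, a cathepsin of cytotoxic cells, at 427 (389 to 468) against 111 (106 to 116), and Gzmb's inhibitor family member Serpinb6b, at 86.6 (69.9 to 106) against 27.8 (25.2 to 30.5). Gzmb and Serpinb6b, under 50 CPM in other cells, passed only through the score-high cells. Serpinb9, the inhibitor of granzyme B, was below the filter at 75.4 (59.9 to 93.7) against 8.88 (7.48 to 10.5). Perforin (Prf1) was almost undetected, at 0.931 (0.0236 to 5.19) from 1 UMI against 0.750 (0.388 to 1.31), and Fasl stood at 24.2 (15.8 to 35.5) against 1.56 (1.01 to 2.31).

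Among secreted signals, only 2 of 12 listed genes passed the filter, so the others could not be counted. Ltb was within 2-fold, and Xcl1, the chemokine that attracts cross-presenting dendritic cells, was counted as higher. Its level was 437 (399 to 479) CPM against 20.5 (18.4 to 22.9), a ratio of 21.3 (18.5 to 24.6), with UMIs in 97 cells. In other cells it was thus under 50 CPM, and it passed the filter only through the score-high cells. Ifng, the signature cytokine of type-1 cells, was below the filter, at 65.2 (50.8 to 82.3) against 7.32 (6.05 to 8.77), and its thinned share was 9.62% (6.49% to 13.6%) of score-high cells (15.7% unthinned) against 1.12% (0.614% to 1.87%) of immature cells (2.64%). Ccl4 stood at 45.6 (33.7 to 60.3) against 25.4 (23.0 to 28.0), with 12 of 49 UMIs in 1 cell. Ccl3 held 3 UMIs, Tnf 3, and Csf1 and Csf2 none. Ltb, the lymphotoxin chain made by many resting lymphocytes, was alike in both groups at 498 (457 to 542) and 449 (439 to 459.5).

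Of 15 listed receptors 5 passed the filter and only Il7r was counted as higher, at 144 (122 to 169) CPM against 69.7 (65.7 to 73.9), a ratio of 2.07 (1.74 to 2.45). Il2rg, the common chain that pairs with CD122, stood at 462 (422 to 504) and 402 (392 to 412), and Ifngr1 at 713 (663 to 765) and 749 (735 to 762). Il18r1, the receptor for interleukin-18, was low at 31.6 (21.9 to 44.2) against 17.4 (15.5 to 19.6), as were Il12rb2 at 6.52 (2.62 to 13.4) and Il15ra at 4.65 (1.51 to 10.9). Il2ra held 1 UMI.

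Genes of trafficking and adhesion separated into 3 patterns. Ccr9, the receptor that holds developing thymocytes near its ligand CCL25, was lower at 208 (181 to 237) CPM against 839 (825 to 854), a ratio of 0.247 (0.216 to 0.282). Only 8 of 17 chemokine receptor and egress genes passed the filter, and besides Ccr9 the other 7 were within 2-fold. Klf2, the factor that turns on the egress receptor, was at 895 (839 to 953) against 516 (504 to 527) and S1pr1, that egress receptor, at 181 (156 to 208) against 141 (135 to 147), neither of them 2-fold apart. Cxcr3, the receptor typical of type-1 cells, was below the filter at 18.6 (11.4 to 28.8) against 1.25 (0.764 to 1.93), and Cxcr6 was at 70.7 (55.7 to 88.5) against 37.0 (34.1 to 40.1). Of 16 adhesion and residency genes found, 13 passed the filter and 6 were higher.

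The largest of these 6 was Ly6c2, a surface protein of memory-like T cells, at 391 (354 to 430.2) CPM against 6.75 (5.54 to 8.15), a ratio of 57.9 (46.7 to 72.2). Cd7 stood at 902 (846 to 961) against 119 (114 to 124), Cd2, the receptor for CD48, at 244 (215 to 275) against 90.4 (85.8 to 95.2), and Rgs1, which dampens chemokine receptor signals, at 379 (343 to 417) against 152 (146 to 158). The integrin chains Itga4, at 103 (85.0 to 124) against 38.8 (35.8 to 42.0), and Itgb2, at 155 (132 to 179.9) against 66.7 (62.7 to 70.8), made up the rest. Ly6c2 and Itga4 were under 50 CPM in other cells and passed only through the score-high cells. Itgae, the chain that binds E-cadherin, and Cd44 were not 2-fold apart, at 64.2 (49.97 to 81.3) against 45.9 (42.6 to 49.3) and at 38.2 (27.4 to 51.8) against 21.6 (19.4 to 24.0). Cd69 was also alike, at 274 (243 to 307) and 219.8 (213 to 227).

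Of 20 listed genes of immature thymic cells 14 passed the filter and 10 were lower. Cd24a is among them and was fixed by the rule, and 4 of the 14 were under 50 CPM in score-high cells and so passed only through the other cells. Hes1, a target of Notch, stood at 60.5 (46.7 to 77.1) CPM against 514 (503 to 525), a ratio of 0.118 (0.0908 to 0.150), Sox13, a factor of early γδ cells, at 35.4 (25.03 to 48.5) against 176 (169.5 to 183), and Sox4 at 332 (299 to 369) against 771 (758 to 785). Dntt, which adds bases at receptor joints, stood at 31.6 (21.9 to 44.2) against 107.6 (103 to 113), and Cpa3 at 50.3 (37.8 to 65.6) against 187 (181 to 194). Etv5 was at 40.03 (29.0 to 53.9) against 157 (150.5 to 163). These genes were reduced and not gone, since Sox4 was still found in 29.6% (24.4% to 35.2%) of thinned score-high cells (43.0% unthinned), against 69.5% (66.9% to 72.0%) of immature cells (92.1%). Rag1, Rag2 and Ptcra were at 0 in score-high cells and at most 3.53 CPM in the immature class.

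The naive and stem-like list showed no 2-fold difference in any of the 7 of 10 genes that passed, with Tcf7 at 294 (263 to 328) against 515 (504 to 526) and Lef1 at 235 (207 to 266) against 254 (246 to 262). Of the genes tied to γδ NKT cells, 5 of 17 passed, none was higher, and 1, Gata3, was lower at 99.6 (81.6 to 120.4) against 287 (278 to 295). The 7 genes of T cell identity were all within 2-fold, with Cd3e at 626 (579 to 675) and 622 (609 to 634).

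**Figure D2:**
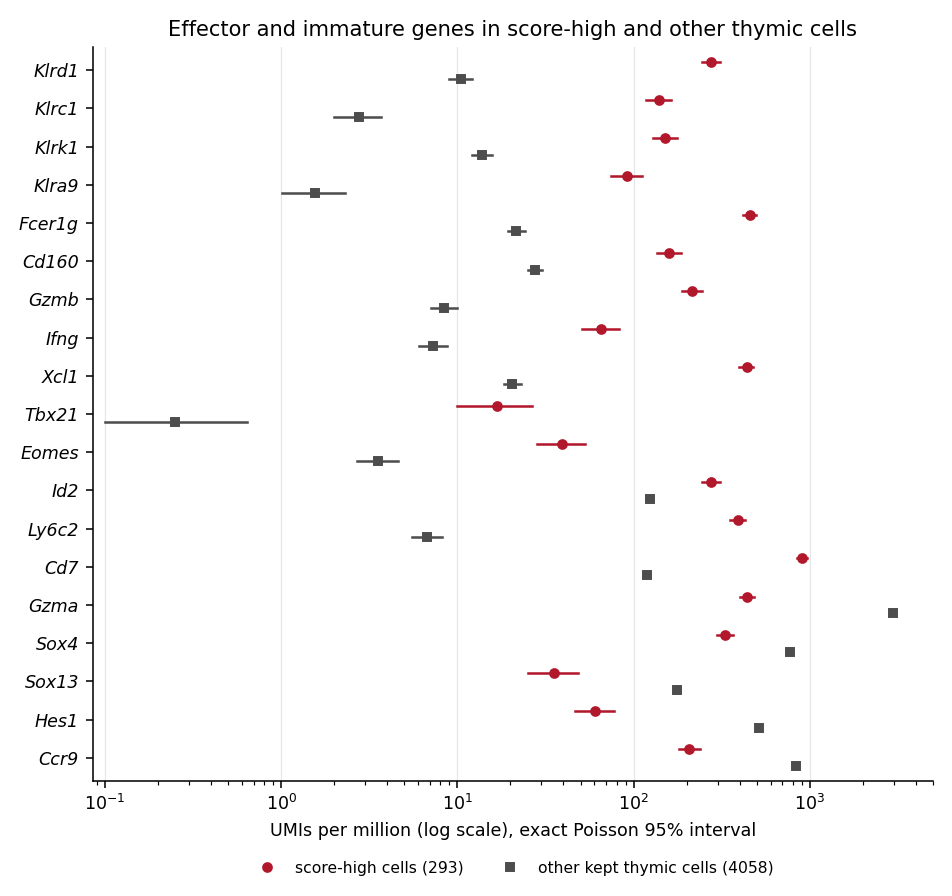
Each row is a gene, the horizontal axis its summed level in CPM on a log scale, with exact Poisson 95% intervals (bars reaching below 0.1 are cut there) for score-high and other kept thymic cells. From Klrd1 to Cd7 the level is higher in the 293 score-high cells, and from Gzma to Ccr9 it is lower.

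Of the 11 genes of calcium-binding and cytoskeletal proteins (S100 proteins, galectins, annexins and the like), 10 passed and 4 were higher, namely Lgals3 (galectin-3), at 125 (105 to 148) CPM against 12.1 (10.5 to 14.0), the very large scaffold protein Ahnak, at 135 (114 to 159) against 17.2 (15.2 to 19.4), S100a6, at 511 (469 to 556) against 212 (205 to 219), and Capg, at 135 (114 to 159) against 65.7 (61.8 to 69.8). Lgals3 and Ahnak were under 50 CPM in other cells, so they passed the filter only through the score-high cells. Outside the lists, the genes with the largest ratios included Pglyrp1, a granule protein that binds bacterial cell walls, at 139.6 (118 to 164) CPM against 9.57 (8.11 to 11.2), and H2-Q6, a class Ib histocompatibility gene, at 113 (93.5 to 135) against 8.76 (7.37 to 10.3). Class I genes share long stretches of sequence, so the counting could split reads between them. Litaf stood at 109.8 (90.9 to 132) against 12.9 (11.2 to 14.8). Those with the smallest ratios included Endou, an endoribonuclease, at 16.8 (9.93 to 26.5) against 176 (169.8 to 183), a ratio of 0.0951 (0.0563 to 0.151), Ptov1 at 17.7 (10.6 to 27.6) against 105 (100.3 to 110.4), the histone gene Hist3h2ba at 17.7 (10.6 to 27.6) against 90.8 (86.2 to 95.6), Blk, a kinase of the Src family, at 41.9 (30.6 to 56.0) against 211 (204 to 218), the transcription factor Maf at 26.1 (17.3 to 37.7) against 115 (110.0 to 121), and Nck2, an adaptor of T cell receptor signals, at 21.4 (13.6 to 32.1) against 103 (98.0 to 108.03).

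Klrd1 and Ly6c2 were found in more cells at a score of 20 and over than at 0, and Ccr9 in fewer. Among thymic cells within the other limits and thinned to 1500 UMIs, a Klrd1 UMI was found in 1.09% (0.470% to 2.13%) of 737 cells with a score of 0, in 4.75% (2.96% to 7.17%) of 442 cells at 3 to 5, in 9.09% (4.93% to 15.04%) of 143 at 6 to 9 and in 58.3% (47.1% to 69.0%) of 84 at 20 and over. Ccr9 ran the other way, from 73.8% (70.5% to 77.0%) at 0 through 50.5% (45.7% to 55.2%) and 29.4% (22.1% to 37.6%) to 3.57% (0.743% to 10.1%). Ly6c2 was found in 9.09% (4.93% to 15.04%) of cells at 6 to 9 and in 42.9% (32.1% to 54.1%) at 20 and over, and Ifng in 2.80% (0.767% to 7.01%) and 23.8% (15.2% to 34.3%). Tbx21 was found in none of the 737 cells at 0 and in 7.81% (2.59% to 17.3%) at 10 to 19, of 64 cells. A deeper cell collects more score UMIs, and the median depth was 2737 UMIs at a score of 0, 3691 at 6 to 9 and 3027 at 20 and over.

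Just inside and just outside the limit, values were close. At a score of 5, with 80 cells, Sox4 was found in 38.8% (28.1% to 50.3%) of thinned cells, and at a score of 6, with 60 cells, in 43.3% (30.6% to 56.8%). Xcl1 was found in 6.25% (2.06% to 14.0%) and 8.33% (2.76% to 18.4%), and Ccr9 in 43.8% (32.7% to 55.3%) and 38.3% (26.1% to 51.8%). The intervals of the 2 sides overlapped for each of these 3 genes.

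**Figure D3:**
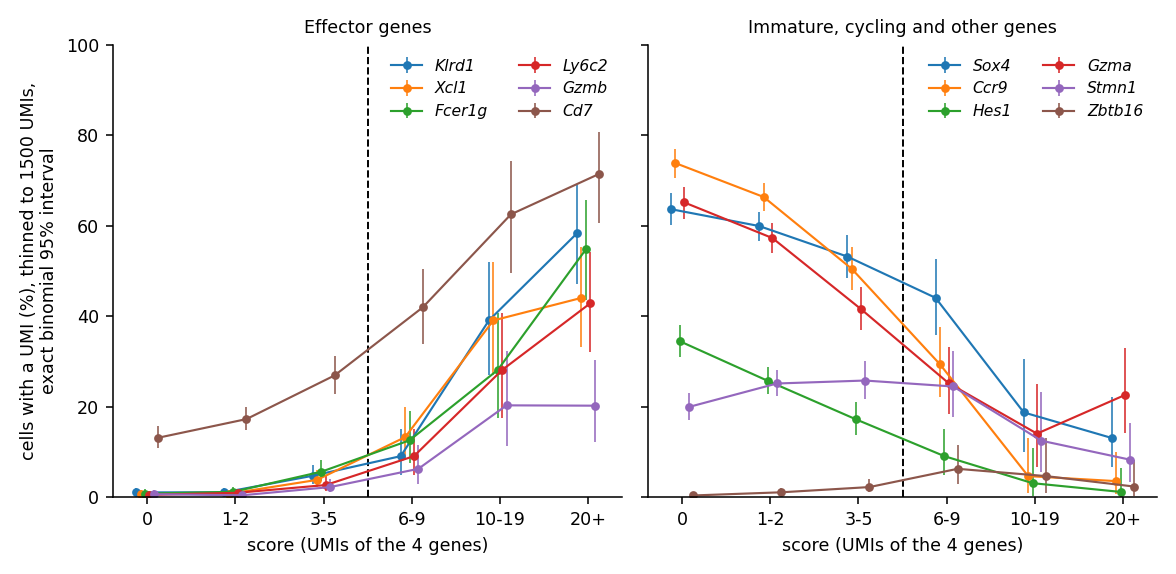
The horizontal axis gives bins of the score in kept thymic cells within the other limits, and the vertical axis the share of cells in % with a UMI of each gene after thinning to 1500 UMIs, with exact binomial 95% intervals; the dashed line is the limit of 6. Left, 6 effector genes reach their highest shares at 20 and over, apart from Gzmb, which is level above 10; right, Sox4, Ccr9 and Hes1 are found in fewer cells at 20 and over than at 0, while Zbtb16 stays under 7% in every bin.

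NK receptors, Ly6c2, Ifng and immediate early genes were higher in the Ccl5-positive stratum, and Stmn1, 2810417H13Rik, Ccr9, Ccr7 and Igfbp4 in the Nkg7-only stratum. Ccl5-positive cells, at a median of 2880 UMIs, were set against Nkg7-only cells, at 4496. Of 1587 genes that passed the same filters, 90 were higher in Ccl5-positive cells (5.67%) and 76 lower (4.79%). The strata were cut by Ccl5, Il2rb and Klrb1c, so these 3 genes are no result. Depth moved with the strata, and its part was not tested. Of the NK receptor and adaptor genes 7 passed and were counted as higher in the Ccl5-positive cells, but 4 of them (Klrc1, Tyrobp, Klrk1 and Cd160) were under 50 CPM in Nkg7-only cells and passed only through the Ccl5-positive cells. Klrc1 stood at 284 (238 to 337) CPM in them and had no UMI in Nkg7-only cells, at least 18.6-fold higher against a floor of 3 UMIs over that group. Fcer1g stood at 704 (630.0 to 785) against 117 (74.3 to 176), and Tyrobp at 185 (148 to 229) against 5.09 (0.129 to 28.4), where it rests on 1 UMI.

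Ly6c2 followed the same order, at 698 (624 to 778) CPM in Ccl5-positive, 203 (162 to 251) in remaining and 61.1 (31.6 to 107) in Nkg7-only cells. Ifng stood at 116 (87.4 to 152) in Ccl5-positive, 36.3 (20.3 to 59.8) in remaining and 5.09 (0.129 to 28.4) in Nkg7-only cells, and Eomes at 77.5 (54.3 to 107), 14.5 (5.32 to 31.6) and 0. Gzmb did not follow it, since the remaining cells held 285 (236 to 342), with an interval that overlapped that of the 235 (193 to 283) in Ccl5-positive cells, against 15.3 (3.15 to 44.7) in Nkg7-only cells. Immediate early genes were also highest where Ccl5 was: of 9 that passed, 7 were higher in Ccl5-positive than in Nkg7-only cells, with Jun at 282 (236 to 335) against 30.6 (11.2 to 66.5) and Fos at 928 (843 to 1020.1) against 163 (112 to 230.2). Jun was under 50 CPM in Nkg7-only cells and passed only through the Ccl5-positive cells.

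Both cell cycle genes of the list that passed, Stmn1 and Pcna, were higher in the Nkg7-only stratum. Of 7 immature genes that passed, Sox4 and Ccr9 were higher there by at least 2-fold and 5 were within 2-fold. Stmn1, a microtubule regulator of dividing cells, stood at 932 (802 to 1078) CPM against 86.1 (61.5 to 117) in Ccl5-positive cells, and 2810417H13Rik, which encodes the PCNA-binding protein PCLAF, at 448 (359.6 to 552) against 2.15 (0.0545 to 12.0). At least 3 UMIs of the 14 cell cycle genes were found in 15 of 41 Nkg7-only cells, 19 of 92 remaining cells and 9 of 160 Ccl5-positive cells. Ccr9 stood at 402 (319 to 502) in Nkg7-only against 73.2 (50.7 to 102) in Ccl5-positive cells, Ccr7, the lymph node homing receptor, at 265 (198 to 347) against 71.1 (48.9 to 99.8), Plac8 at 1314 (1159 to 1485) against 329.5 (279 to 386) and Igfbp4 at 453 (364 to 558) against 43.1 (26.3 to 66.5). In the immature class Stmn1 was at 767 (745 to 789), Igfbp4 at 359 (344 to 374), Plac8 at 981 (956 to 1007) and Ccr9 at 802 (779.7 to 825), all above the Ccl5-positive level. Nkg7 itself stood at 259.8 (247 to 273) in the immature class, with a UMI in 54.6% of its cells before thinning, against 28.3% after thinning, so a single Nkg7 UMI was common in immature cells.

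**Figure D4:**
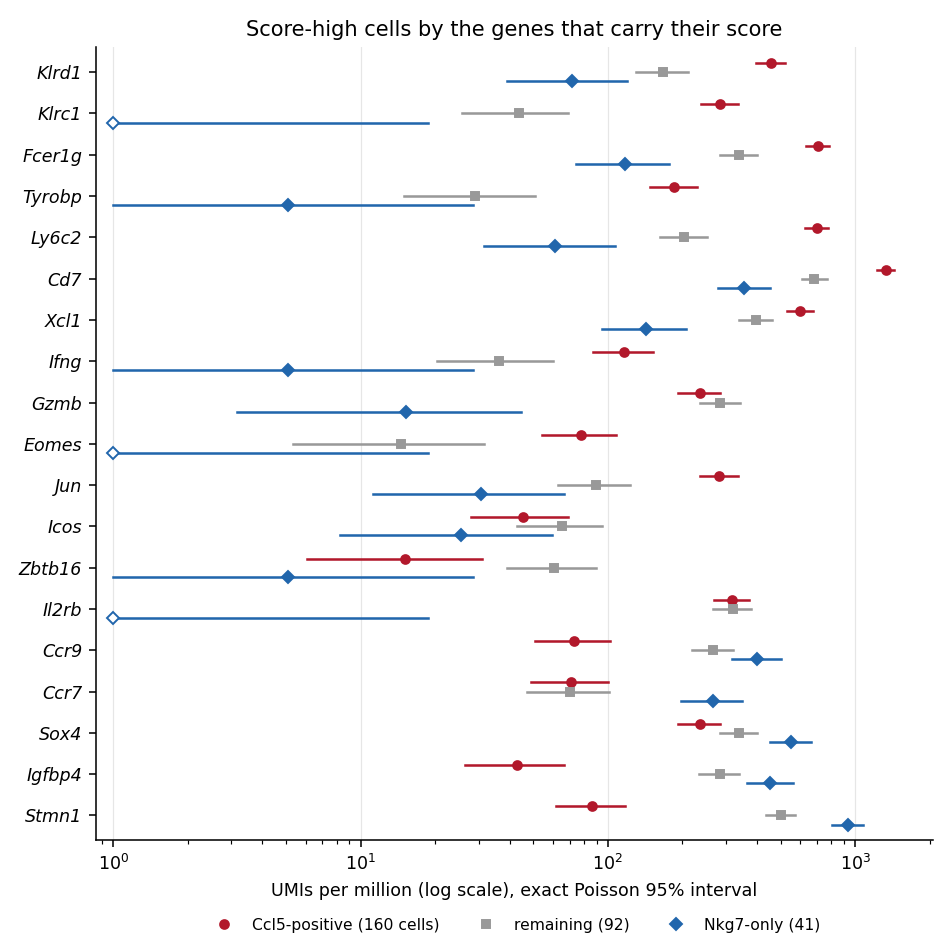
Each row is a gene, the horizontal axis its summed level in CPM on a log scale with exact Poisson 95% intervals, in 160 Ccl5-positive, 92 remaining and 41 Nkg7-only score-high cells; open symbols at 1 mark genes with no UMI and bars reaching below 1 are cut there. NK receptor genes, Ly6c2, Cd7 and Jun are highest in Ccl5-positive cells, Zbtb16 in remaining cells, and Ccr9, Ccr7, Sox4, Igfbp4 and Stmn1 in Nkg7-only cells.

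The genes that varied most from cell to cell included genes of both ends of the score. Over 291 score-high cells thinned to 1500 UMIs, the median ratio of variance to mean of 1805 genes with a mean of at least 0.1 UMI was 1.04, where counting error alone gives 1. Ccl5, which is part of the rule, had 18.1, and the abundant transcripts Malat1 and Actb 13.4 and 12.6. Gzma followed with 8.00, with UMIs in 64 cells and up to 23 in 1 cell. The next genes were the histone Hist1h2ap with 4.46, Tuba1b with 4.37, Rgs1 with 4.00 and Gzmb with 3.96. 4933434E20Rik had 3.78 and 2810417H13Rik, with UMIs in only 11 cells, 3.78. Xcl1, Ly6c2, Fcer1g, Cd7 and Stmn1 lay between 3.32 and 3.72. Of these 15 genes, 4 (Hist1h2ap, Tuba1b, 2810417H13Rik and Stmn1) are genes of dividing cells. Ccl5, Gzmb, Xcl1, Ly6c2, Fcer1g, Cd7 and Rgs1 are among the genes that were higher in score-high cells.

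Within the score-high cells, those with a UMI of Zbtb16 or Il4 were set against those without. There were 28 with, 9.56% (6.44% to 13.5%), and 265 without. Zbtb16 was found in 27 cells, 23 of them with 1 UMI, 2 with 2 and 2 with 3, and Il4 in 2 cells with 4 UMIs in all, 1 of which also held Zbtb16. Cells with either gene were deeper, at a median of 4083 against 3190 UMIs. Depth thus moved with this split, and its part was not tested. They were unevenly spread over the strata, with 20 of 92 remaining, 7 of 160 Ccl5-positive and 1 of 41 Nkg7-only cells. Ly6c2, Eomes and other genes differed between the strata, so the mix of strata also moved with this split, and its part was not tested. Score-high cells were 6.73% of all kept thymic cells. They were 28 of 181 kept thymic cells with Zbtb16 or Il4, 15.5% (10.5% to 21.6%), and 2 of 30 with Il4, 6.67% (0.818% to 22.1%). Most cells with either gene were thus not score-high, as were most kept thymic cells. A Zbtb16 UMI was found in 9.22% (6.16% to 13.1%) of score-high cells, 3.43% (2.89% to 4.03%) of other kept thymic cells and 2.72% (1.89% to 3.78%) of immature cells. For Il4 the shares were alike, at 0.683% of score-high and 0.690% of other kept thymic cells. Thinned cells held Zbtb16 at 4.81% (2.65% to 7.94%) in the score-high and 0.961% (0.497% to 1.67%) in the immature class, whose median depths were 3254 and 3693.5 UMIs.

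Cells with either gene held more Icos, Gzmb and Xcl1 and less Ly6c2, Klrc1 and Tyrobp than cells without, with neither depth nor strata matched. Of 2370 genes that passed the filters, 51 were higher (2.15%) and 62 lower (2.62%) in the cells with Zbtb16 or Il4, and with CPM computed without mitochondrial and ribosomal-protein UMIs the counts were 46 and 135 of 2617 genes that then passed, or 46 and 65 over the same 2370 genes. Icos, the costimulatory receptor typical of PLZF-positive lymphocytes, stood at 147 (89.8 to 227) CPM against 35.2 (24.2 to 49.4), a ratio of 4.18 (2.27 to 7.504), from 8 of 28 cells. In the cells without it was under 50 CPM, so it passed only through the cells with Zbtb16 or Il4. Gzmb stood at 456 (349 to 584) against 179 (153 to 208), from 9 cells, and Xcl1 at 779 (638 to 942) against 388 (349 to 429.9), from 13 cells. Without the cell richest in each gene, Icos was at 113, Gzmb at 356 and Xcl1 at 629, so that Icos was still at least 2-fold above the cells without Zbtb16 or Il4 and Gzmb and Xcl1 were then within 2-fold of them. The ratio of Xcl1, 2.01 (1.60 to 2.5001), lay at the limit of 2 and was not past it on the other scale. Bcl2a1b, a survival gene with near copies in the genome, stood at 198 (131 to 289) against 51.2 (37.7 to 67.8). Nt5e was below the filter, at 58.8 (25.4 to 116) from 8 UMIs against 22.4 (13.9 to 34.2).

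Several of the 10 largest ratios rested on 1 or 2 cells. Klra1 stood at 206 (137 to 297) CPM against 65.0 (49.7 to 83.5), but 1 cell held 18 of 28 UMIs and the level without it was 81.8. The mitotic genes Ube2c, at 213 (143 to 306) against 24.5 (15.5 to 36.8), and Birc5, at 169 (107 to 254) against 32.0 (21.6 to 45.6), were each found in 2 cells. Top2a, a DNA topoisomerase of dividing cells, stood at 176 (113 to 263) against 53.3 (39.6 to 70.3), with 13 of 24 UMIs in 1 cell. H2afx, Smc2, Cks2 and Lockd, the other genes among the 10 largest ratios, each drew 34.5% to 66.7% of their UMIs from 1 cell. At least 3 cell cycle UMIs were found in 10 of 28 cells with Zbtb16 or Il4 and in 33 of 265 without.

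On the lower side stood Ly6c2, Klrc1, Tyrobp and Ccr7. Of 9 NK receptor and adaptor genes that passed, 2 were lower in cells with Zbtb16 or Il4 and 1, Klra1, was higher, and of 7 naive and stem-like genes 2 were lower and 5 within 2-fold. Tyrobp and Ccr7, among these lower genes, were under 50 CPM in cells with Zbtb16 or Il4. They passed only through the cells without. Ccl5 itself, part of the score, was at 1235 (1055 to 1436) CPM against 3717 (3595 to 3843), Ly6c2 at 162 (101.3 to 245) against 424 (384 to 468) and Klrc1 at 66.2 (30.3 to 126) against 150.3 (126 to 177). Tyrobp was found in 1 of 28 cells, at 22.1 (4.55 to 64.4) against 102 (82.9 to 125), and Eomes in none, against 44.8 (32.3 to 60.5). Ccr7 stood at 36.8 (11.9 to 85.8) against 116 (95.4 to 140.1) and Irf7, an interferon-induced factor, at 22.1 (4.55 to 64.4) against 82.1 (64.8 to 103). The smallest ratio belonged to Ccm2, an adaptor of kinase signalling, at 14.7 (1.78 to 53.1) from 2 UMIs against 111 (90.6 to 134). Rbm4b, Psmc1, Rras2, Tiprl and Samhd1, which complete the 10 smallest, were at ratios of 0.268 to 0.338 and held at most 7 UMIs each in the 28 cells. Nkg7, at 1588 (1383 to 1814) and 1605 (1525 to 1688), Klrd1, at 257 (179 to 358) and 277 (244 to 313), and Il2rb, at 301 (216 to 409) and 254 (222 to 288), were within counting error of one another. Of the other genes tied to γδ NKT cells, Gata3 was at 103 (56.3 to 173) against 99.1 (80.0 to 121) and Cd28 at 654 (525 to 805) against 485 (441 to 532), and Il13 and Zbtb7b held at most 3 UMIs in either group.

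In the liver library the same rule took in 6734 of 8075 kept cells, 83.4%, with a median score of 54 and a median depth of 2745 UMIs. Set against them, thymic score-high cells were poorer in NK receptors, cytotoxic genes, chemokines and immediate early genes, and richer in genes of immature and naive cells. Of 2376 genes that passed the filters, 111 were higher in the thymic cells (4.67%) and 169 lower (7.11%). Ribosomal-protein genes took 33.0% of UMIs in thymic score-high cells and 26.2% in the hepatic cells. With CPM computed without mitochondrial and ribosomal-protein UMIs, every log2 ratio was 0.15 higher, which moved the median from 0.07 to 0.22. Then 292 genes were higher and 171 lower of 3286 that passed, or 171 and 139 over the same 2376 genes. The balance of higher and lower genes therefore turned with the scale. The ratios and counts below are on the first scale, with its median log2 ratio of 0.07, unless stated, and were not corrected for that median.

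Of 16 NK receptor and adaptor genes that passed, 15 were lower in thymic cells, and 14 were on the other scale. For 5 of the 16 (Ncr1, Cd244, Cd226, Klra5 and Klra7) the thymic level was under 50 CPM, so they passed only through the hepatic cells. Tyrobp stood at 92.2 (74.9 to 112) CPM in thymic and 1307 (1291 to 1323) in hepatic cells, a ratio of 0.0705 (0.0573 to 0.0859), Klre1 at 52.1 (39.4 to 67.7) and 731 (719 to 743), and Cd160 at 159 (136 to 185) and 847 (834 to 859.8). The exception was Klra1, at 82.8 (66.5 to 102) and 74.9 (71.2 to 78.8), within counting error. Gzmb stood at 214 (187 to 244) and 3187 (3162 to 3212), Gzma at 438 (399.7 to 479.9) and 2719 (2697 to 2742), and Ifng at 65.2 (50.8 to 82.3) and 797 (785 to 809.6). The chemokines Ccl3, at 2.79 (0.576 to 8.16) and 637 (626 to 648), and Ccl4, at 45.6 (33.7 to 60.3) and 3543 (3517 to 3569.5), were among the 10 smallest ratios. Tbx21 stood at 16.8 (9.93 to 26.5) and 84.4 (80.4 to 88.6), whereas Eomes was the higher in thymic cells, at 39.1 (28.2 to 52.8) and 10.4 (9.01 to 11.9), though below the filter.

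The smallest ratio of all was that of Hspa1a, a heat shock gene, at 8.38 (3.83 to 15.9) CPM in thymic and 2054 (2034 to 2074) in hepatic cells, and its near copy Hspa1b, between which the counting could split reads, stood at 4.65 (1.51 to 10.9) and 286 (278 to 293). Of 11 stress and immediate early genes 9 were lower in thymic cells, among them Hspa1a and Hspa1b, which passed the filter only through the hepatic cells. Tissue, isolation of the cells and library cannot be told apart for these genes. Asb2, at 0.931 (0.0236 to 5.19) and 102 (97.2 to 106), Gcnt2, at 1.86 (0.225 to 6.72) and 165 (159.7 to 171), and Osgin1, at 7.45 (3.21 to 14.7) and 274 (267 to 281), also stood among the 10 smallest. Cited4, Gadd45g and Ckb completed them, at 2.79, 5.58 and 9.31 CPM in thymic and 109, 122 and 165 in hepatic cells.

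On the higher side, 5 of 7 immature genes and 6 of 7 naive and stem-like genes that passed were above the hepatic level by at least 2-fold, and 3 genes of each list were under 50 CPM in hepatic cells and so passed only through the thymic cells. Sox4 stood at 332 (299 to 369) CPM in thymic and 12.7 (11.2 to 14.3) in hepatic cells, a ratio of 26.2 (22.2 to 30.9), and Igfbp4 at 210.4 (184 to 239.7) and 8.02 (6.83 to 9.36), a ratio of 26.2 (21.3 to 32.3). Ccr9 stood at 208 (181 to 237) and 18.6 (16.8 to 20.6), Stmn1 at 400.3 (363 to 439.9) and 27.0 (24.7 to 29.3), and 2810417H13Rik at 122 (102 to 145) and 9.93 (8.59 to 11.4). Among the 10 largest ratios were also Nrgn, a calmodulin-binding protein, at 114 (94.3 to 136) and 4.71 (3.81 to 5.77), Pdcd1, the inhibitory receptor PD-1, at 101.5 (83.3 to 122) and 8.42 (7.20 to 9.80), Tsc22d1 at 176 (152 to 203) and 13.2 (11.6 to 14.9), Rab3ip at 99.6 (81.6 to 120.4) and 11.8 (10.4 to 13.4), and Marcksl1 at 183 (159 to 211) and 22.0 (19.9 to 24.1). S1pr1 was higher in thymic cells as well, at 181 (156 to 208) and 24.5 (22.3 to 26.7).

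Some of these differences held in the Ccl5-positive stratum taken alone. In the Ccl5-positive stratum alone, Sox4 was still at 235 (193 to 283) CPM, Pdcd1 at 127 (96.7 to 164), S1pr1 at 131 (100.5 to 169) and Tsc22d1 at 149 (116 to 188), each above the hepatic level. In that stratum 2810417H13Rik was at 2.15 (0.0545 to 12.0), not above the hepatic level. With the rule applied to cells thinned to 1500 UMIs, which left 146 thymic cells, its log2 ratio to hepatic cells was -1.89. On the lower side, Ccl5-positive thymic cells held Gzmb at 235 (193 to 283), Ifng at 116 (87.4 to 152), Tyrobp at 185 (148 to 229) and Klrd1 at 457 (397 to 522), all under the hepatic level, while Ly6c2 at 698 (624 to 778) was above the hepatic 428 (419 to 437).

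**Figure D5:**
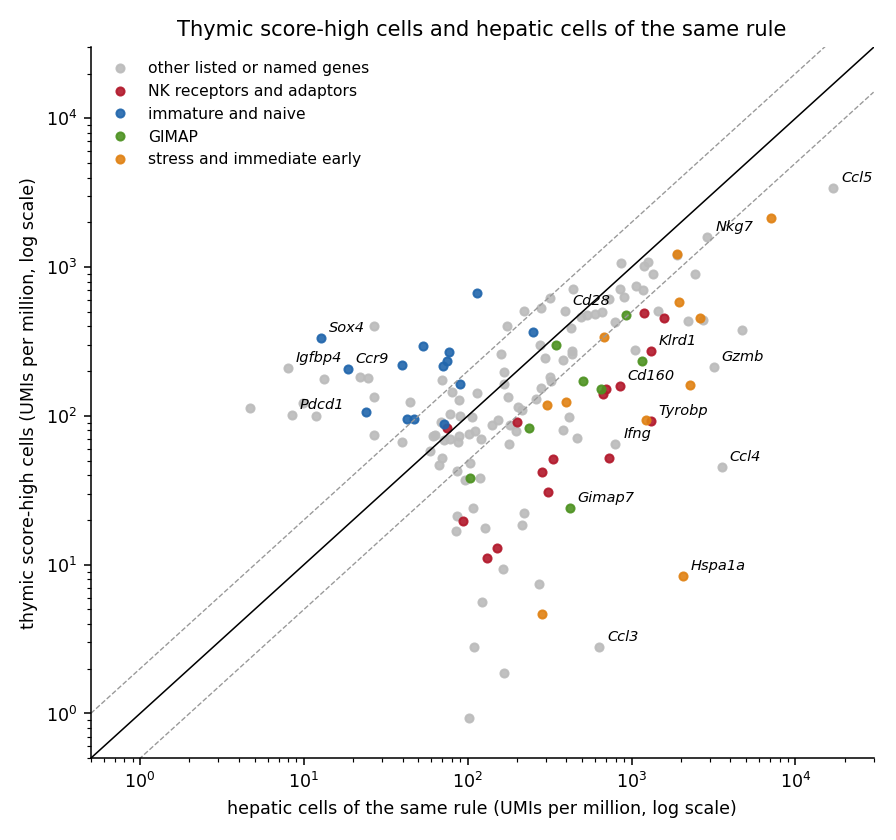
Each point is a listed or named gene that passed the filters, with its summed level in hepatic cells of the same rule on the horizontal and in the 293 thymic score-high cells on the vertical axis, both in CPM on a log scale, with equality as a solid and 2-fold differences as dashed lines. NK receptor, GIMAP and stress genes lie mostly below the lower dashed line and immature and naive genes mostly above the upper one.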

How the data were processed

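γδ T cells of the thymus and the liver were each profiled in 1 library with a 3′ droplet kit (10x Genomics). The deposited counts are UMI counts per gene and cell barcode, made by the authors with Cell Ranger against mm10 (submitters' processing notes, which also name Seurat 3.0). The Cell Ranger version was not given in the sources used here. The thymic table held 2 stray text lines after its entries, which were not read. It lists 27998 genes.

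Cells with 800 to 4000 genes and at most 6% mitochondrial UMIs were kept. The study's methods also limited ribosomal UMIs to 50%, which was an alternative here and left the same 293 score-high cells. The study states fewer cells than remained with or without that limit. No cell was removed as a doublet in the main values. As an alternative, the 4% of cells of each library with the highest Scrublet scores (scanpy 1.11.5) were left out. The members and the 26 gene lists (287 of 288 genes found) were chosen with earlier results of these data known.

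UMIs were summed over the cells of a group and divided by the group's total to give CPM, with exact Poisson intervals. Ratios have exact conditional binomial and shares exact binomial 95% intervals. No test was run, since there was 1 library per tissue. For shares, 1500 UMIs were drawn at random from every cell, leaving out cells with fewer. A ratio against a group without UMIs was computed against a floor of 3 UMIs over the group. Named genes were those of the lists at least 2-fold apart or, where a list is described, near a ratio of 1, the 15 largest and 10 smallest ratios to other thymic cells, the 10 largest and 10 smallest of the Zbtb16 or Il4 split and of the hepatic comparison, and the 15 genes of highest variance over mean. Some genes, and a comparison with another class of thymic cells, are not reported here. The intervals were tested on data simulated with counting error alone. The simulation cannot show how they hold for genes that varied more than that from cell to cell. Python 3.11.15, numpy 2.4.6, scipy 1.17.1, pandas 2.3.3 and matplotlib 3.10.9 were used.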

Additional observations from a re-analysis of the deposited data

How the results depend on the processing

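The number of score-high cells depended on the limits. It was 514 at a score of at least 4, 150 at a score of at least 10, 220 with Cd24a at 0 UMIs and 146 with the rule applied to cells thinned to 1500 UMIs, of which 141 were among the 293. The other limits on genes, mitochondrial and ribosomal-protein UMIs and the removal of high Scrublet scores left between 286 and 308.

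Against other thymic cells, 36 genes were lower at a score of at least 4, 117 were higher and 166 lower at a score of at least 10, and 148 were higher and 207 lower with the rule on thinned cells. Thinning the cells gave 120 lower genes, and leaving out cells with at least 3 cell cycle UMIs, an alternative chosen after seeing the data, gave 116. For the split by Zbtb16 or Il4, 33 genes were higher with Cd24a at 0, 26 were higher in thinned cells, 135 were lower without mitochondrial and ribosomal-protein UMIs, and 17 were higher and 25 lower within the remaining stratum alone, also chosen after seeing the data. Against hepatic cells 292 genes were higher without mitochondrial and ribosomal-protein UMIs.

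A mean level of at least 100 CPM left 37 higher and 39 lower genes against other thymic cells, 23 and 15 in the split and 50 and 93 against hepatic cells. With no filter beyond 1 UMI in each group the counts were 1384 and 923, 1318 and 710, and 2336 and 993, in the same order. These changes follow from fewer or more genes passing, and the cause of the others was not tested. Of the counts recomputed in these ways, 63 were within 1.5 times the first value and 29 were not. Of the log2 ratios of single named genes, 776 stayed within the interval of the first value, 127 moved out of it in the same direction, and 2 changed sign, which were Psmc1 in the split at a score of at least 4 (log2 ratio 0.10) and 2810417H13Rik against hepatic cells with the rule on thinned cells (-1.89).

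The split was not repeated where fewer than 20 cells held Zbtb16 or Il4: at a score of at least 10 (14 cells), with the rule on thinned cells (9), after thinning (14), by Il4 alone (2) and without cells that held at least 3 cell cycle UMIs (18). No paired analysis was possible because each tissue had 1 library. With a total of 1074323 UMIs, 1 UMI in score-high cells was worth 0.931 CPM, so genes under a few CPM are not resolved, and in the 28 cells with Zbtb16 or Il4 1 cell can decide a level.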

Other observations

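Of 6 GIMAP genes, which encode GTPases of lymphocyte survival, that passed the filter, 4 were within 2-fold of other thymic cells, and Gimap3 and Gimap4 were at least 2-fold above them, at 153 (130.2 to 178) CPM against 22.5 (20.2 to 24.96) and at 234 (206 to 264) against 85.5 (81.0 to 90.1). Hepatic cells of the same rule held far more, at 651 (640.3 to 663) and 1158 (1144 to 1173), and 6 of 8 GIMAP genes that passed there were lower in the thymic cells. Gimap3, under 50 CPM in other thymic cells, passed that filter only through the score-high cells. Gimap6 was at 477 (436 to 519.7) and 482 (471 to 493) in score-high and other thymic cells. Of the survival genes, Bcl2 stood at 238 (210.0 to 269) against 152 (146 to 158) in other thymic and 382 (373 to 390.5) in hepatic cells. Bcl2a1b, below the filter, stood at 69.8 (54.9 to 87.5) against 11.3 (9.67 to 13.0).

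One interferon-induced gene stood apart. Ifi27l2a was at 400.3 (363 to 439.9) CPM in score-high cells against 95.4 (90.6 to 100.3) in other thymic and 173 (167 to 179) in hepatic cells. The other 5 that passed were within 2-fold of other thymic cells, among them Isg15 at 65.2 (50.8 to 82.3) against 49.5 (46.1 to 53.0). Of 5 genes induced through the T cell receptor that passed, Nr4a2 was higher, at 109 (90.1 to 131) against 53.1 (49.6 to 56.8), Egr1 was lower, at 46.5 (34.5 to 61.4) against 127 (122 to 133), and 3 were within 2-fold, among them Nr4a1 at 197 (172 to 226) against 362 (353 to 372). Of 9 stress and immediate early genes 2 were higher, with Fosb at 118 (98.5 to 141) against 31.8 (29.1 to 34.7) and Jun at 162 (139 to 188) against 71.2 (67.2 to 75.5). Fosb was under 50 CPM in other thymic cells and passed only through the score-high cells. Egr1 was under 50 CPM in score-high cells and passed only through the other cells. Although CD8 bearing cells had been depleted, Cd8a was at 22.3 (14.3 to 33.2) in score-high cells, from 9 cells, against 3.06 (2.27 to 4.05) in other thymic and 219 (213 to 226) in hepatic cells.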
